A study of Mus musculus with 6 samples.

Results

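The genes of the mouse major histocompatibility complex (MHC), called H2, were examined with their partners and regulators in LSK-SLAM cells of transplanted mice. The members were the non-control array probes whose gene name starts with H2- or is B2m, Cd74, Ciita, Tap1, Tap2, Tapbp or Nlrc5, a rule that uses no measured value. It found 57 probes of 47 genes among 39429 non-control probes. They comprised 2 classical class I genes with 3 probes, 26 nonclassical class I genes with 32 probes, 10 class II genes with 12 probes, 5 class I partners and regulators with 6 probes, and 2 class II partners and regulators with 2 probes. The remaining 2, H2-Ke2 (Pfdn6 in RefSeq, a prefoldin subunit) and H2-Ke6 (Hsd17b8, a steroid dehydrogenase), lie in the complex but are not MHC molecules, so the counts below cover the other 55 probes of 45 genes.

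RNA was measured on 6 single-colour arrays, 3 per genotype. LSK-SLAM cells are lineage-negative c-Kit+ Sca+ CD150+ CD48- bone marrow cells, a gate enriched for hematopoietic stem cells. Fetal liver cells lacking p190-B, a GTPase-activating protein, or those of WT littermates were transplanted with congenic competitor marrow into lethally irradiated mice, whose marrow was then moved into a second set of irradiated recipients (2T). The cells measured came from 2T recipients of WT cells (2T-WT) and of p190-B-/- cells (2T-p190-B-/-). The p190-B strain was backcrossed into C57BL/6J and the recipients were congenic B6.BoyJ, and both groups carried the same transplantation history. The recipients keep host cells and received competitor cells, and the sort described in the labels names no donor marker. The donor livers were from mid-gestation embryos, and the ages of the recipients are not given in the sources used here. The legend of the study describes independent 2T mice and independent isolations, whereas the labels do not tie an array to a mouse, so p-values measure the spread between these samples. In bulk RNA, fewer cells of a type and less RNA per cell cannot be told apart.

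Class I molecules are a heavy chain paired with B2m, and they show peptides made inside the cell to CD8 T cells and natural killer cells. Tap1 and Tap2 pump those peptides into the endoplasmic reticulum, and Tapbp (tapasin) helps load them. Class II molecules are pairs of an alpha and a beta chain that show peptides from endosomes to CD4 T cells, and are best known from B cells, dendritic cells and macrophages. Cd74, the invariant chain, guides class II molecules to the endosome, H2-DM exchanges the peptides there, and H2-O restrains H2-DM. Nlrc5 is the transactivator of class I genes and Ciita that of class II genes.

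Values are log2 signal relative to the 75th percentile of the same array. Differences are 2T-p190-B-/- minus 2T-WT. They are given with the standard error of limma, a linear model fitted across all probes, and an adjusted p is the Benjamini-Hochberg value over the 25160 probes tested. Testing required signal well above background on 3 or more of 6 arrays. Levels of different probes are not comparable, because each probe binds with its own strength, so each was compared only with itself across arrays.

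The arrays differed in brightness and in the share of probes detected. The 75th percentile of the signal was 53.9 to 227 for 2T-WT and 252 to 385 for 2T-p190-B-/-, and 48.6% to 73.3% of probes were well above background. Of all probes tested, 32.8% had their highest value on 2T-WT replicate 3, the array with the lowest 75th percentile, and the median difference over all 21705 genes tested was -0.35. Over all probes tested, limma called 0 at an adjusted p under 0.05 (smallest 0.0721) and 1654 at an unadjusted p under 0.05. The single probe of Arhgap5, the gene of p190-B, was detected above background by 1 of the 6 arrays, 2T-p190-B-/- replicate 2, so it gave no check of the genotype labels. Among the genes of the gate, Kit was above background on 5 of 6 arrays and Ly6a (Sca-1) on all 6. Slamf1, which encodes CD150, was above background on 0 of 6, and Cd48, which the gate excludes, on all 6. Slide 2 held both genotypes (replicates 2 and 3 of 2T-WT with replicates 1 and 2 of 2T-p190-B-/-), while slides 1 and 3 held 1 array each.

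The sequences that bear on these probes and genes are shown first. The classical class I genes have similar promoters. Below are 150 bases from the promoter windows of H2-K1 and of H2-D1, from RefSeq on GRCm38.p6, with capitals for GGGGATTCCCC, an NF-κB site known as part of enhancer A, and for AGTTTCACTTC, the interferon-stimulated response element next to it. They are shown because the differences of these 2 genes had opposite signs on the arrays. Both lie on chromosome 17, H2-K1 at chr17:34000329-34000478, minus strand and H2-D1 at chr17:35262903-35263052, plus strand.
H2-K1: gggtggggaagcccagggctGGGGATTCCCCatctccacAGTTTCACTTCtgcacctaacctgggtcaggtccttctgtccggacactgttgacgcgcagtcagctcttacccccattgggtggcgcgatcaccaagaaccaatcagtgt
H2-D1: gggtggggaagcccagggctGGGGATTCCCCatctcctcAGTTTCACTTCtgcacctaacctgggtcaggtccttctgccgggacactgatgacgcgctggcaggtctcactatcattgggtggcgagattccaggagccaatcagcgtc

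These stretches were identical at 133 of 150 bases (88.7%) when aligned. Promoter windows of 300 bases, 250 before and 50 after the start, were available for 27025 genes, 32 of them members. GGGGATTCCCC occurred on either strand in 9 windows (0.0333%), and H2-K1, H2-D1 and H2-Q6 were 3 of those 9. AGTTTCACTTC occurred in 16 windows (0.0592%), of which H2-K1, H2-D1, H2-Q4, H2-Q6, H2-Q7 and H2-Q10 were 6.

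Some class II genes share another element. The next stretches carry GCAAC, the core of the X box bound by RFX, followed by CTGATTGG, the Y box bound by NF-Y. Both are in capitals, and the genes are shown because the differences of H2-Eb1 and H2-Eb2 were below 0 and that of H2-Oa above 0, while H2-Aa could not be tested. Positions are H2-Aa at chr17:34287857-34287924, minus strand, H2-Eb1 at chr17:34305756-34305822, plus strand, H2-Eb2 at chr17:34325523-34325589, plus strand, and H2-Oa at chr17:34092283-34092350, plus strand (GRCm38.p6).
H2-Aa: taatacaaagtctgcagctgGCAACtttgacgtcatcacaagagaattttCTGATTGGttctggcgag
H2-Eb1: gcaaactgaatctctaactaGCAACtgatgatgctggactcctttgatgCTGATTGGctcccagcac
H2-Eb2: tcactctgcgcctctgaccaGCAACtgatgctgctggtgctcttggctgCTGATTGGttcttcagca
H2-Oa: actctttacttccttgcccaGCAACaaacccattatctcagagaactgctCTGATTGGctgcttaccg

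CTGATTGG alone was in 4.7% of all windows and GCAAC in 38.6%. The pair with 24 or 25 bases between them was in 5 windows (0.0185%), and 4 of the 5 were these class II genes. All these motifs and the spacing were chosen after the members' promoters had been seen, so the counts describe them and test nothing, and a match is not a binding site.

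Several probes carried sequence that occurs elsewhere. The Ciita probe and the H2-gs10 probe (chr17:35521294-35521353, plus strand, mm9) have words that recur in other genes. Bases 31 to 60 of the H2-gs10 probe are given from the 5′ end, with capitals for 15-base words found in at least 10 promoter windows.
H2-gs10: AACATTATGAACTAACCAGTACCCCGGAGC

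The Ciita probe shared a 15-base word with 37 promoter windows (0.137%) and with 29 other probes, and the H2-gs10 probe with 42 windows (0.155%). One of the probes of H2-T24 shared words with 15 windows. These were the 3 of 55 MHC probes that shared a word with at least 10 windows, against 3.05% of all probes. H2-gs10 is H2-Q4 in RefSeq. Within the family, the probes of H2-Q10 and H2-Q2 matched at 45 of 50 overlapping bases, those of H2-T18 and H2-T3-like at 53 of 56, and those of H2-Q6 and H2-T23 at 27 of 31. Signal from such near-identical copies could not be separated. How far any of these probes bound other RNA was not tested.

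Detection differed widely among the members. Of the 55 probes, 23 (41.8%) were well above background on all 6 arrays, against 34.9% of all probes. Another 15 were above it on 3 to 5 arrays, 11 on 1 or 2, and 6 on none, against 16.8% of all probes on none. The common light chain B2m was above background on 0 of 6 arrays. Tap1 was above it on 2T-p190-B-/- replicate 1 alone, and Tapbp on 2T-WT replicate 3 and 2T-p190-B-/- replicate 1. The widely expressed chaperones Pdia3 and Hspa5 of the same route were also above background on 0 of 6 arrays, whereas Calr was above it on all 6 and Canx on 5. No statement on the level of B2m, Tap1, Tapbp, Pdia3 or Hspa5 follows from their probes.

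**Figure D1:**
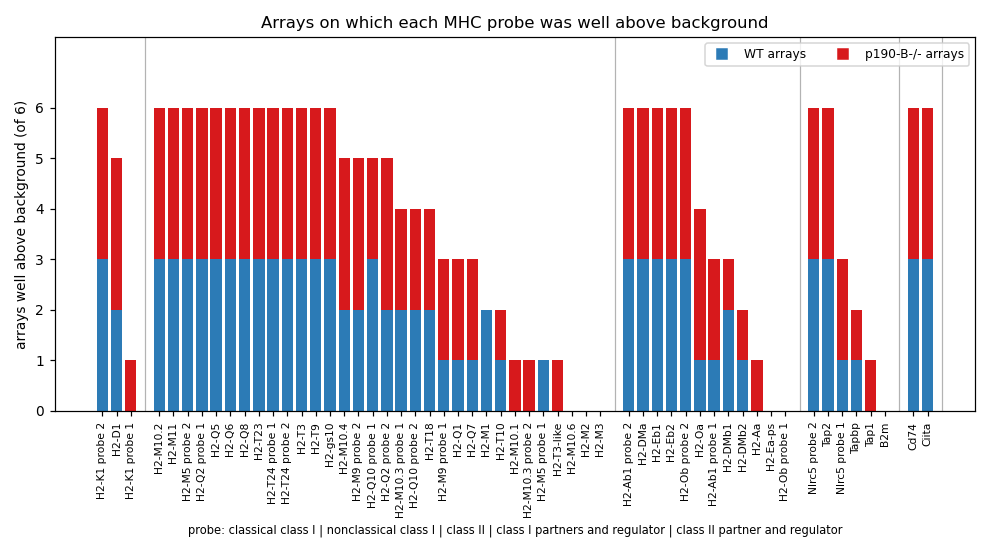
Number of arrays on which each of 55 MHC probes was well above background, stacked as 2T-WT arrays (blue) and 2T-p190-B-/- arrays (red), with a vertical line between the classes. B2m, H2-M2, H2-M3, H2-M10.6, H2-Ea-ps and one probe of H2-Ob have no bar.

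No member passed the test. Of 38 member probes tested, covering 32 genes, limma called 0 at an adjusted p under 0.05, and the background was 0.0% of all probes. Adjusted p ranged from 0.637 to 0.999. At an unadjusted p under 0.05, 1 of 38 (2.63%) passed, H2-Oa, which met the detection filter through the 2T-p190-B-/- arrays, where it was high, against 6.57% of all probes (3.18% with a higher and 3.39% with a lower mean in 2T-p190-B-/-). The methods' t-test passed 2 of 38 before adjustment, H2-K1 and H2-Eb1, against 7.09% of all probes, and 0 after adjustment. The groups did not overlap for 4 of 38, against 16.1% of all probes. H2-K1 was the one that was higher in 2T-p190-B-/- (4.52% of all probes were), and H2-T9, H2-Eb1 and H2-Eb2 were the 3 that were lower (11.6% of all probes). The difference was below 0 for 24 of 38 probes (63.2%), against 60.8% of all probes. The members therefore stood near or under the array-wide share on each count.

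The classes were compared by their medians, taking for each gene the tested probe with the highest mean. For the 2 classical class I genes the median difference was 0.35, from 1 gene higher and 1 lower. Of 19 nonclassical class I genes, 8 were higher and 11 lower, with a median of -0.21. Among 7 class II genes, 3 were higher and 4 lower, with a median of -0.40. The median of all genes was -0.35, and 17 of the 32 member genes tested lay below it. As reported, the nonclassical median was above that of all genes, but it lay below it after normexp background correction (-0.51 against -0.44), with all probes tested regardless of detection (-0.58 against -0.52), among probes above background on all arrays (-0.60 against -0.46), without 2T-p190-B-/- replicate 1 (-0.47 against -0.36) and without replicate 2 (-0.45 against -0.34). Its distance from all genes was also smaller than the spread of the class median between arrays of a group (SD 0.62). With quantile normalization between arrays the nonclassical median was 0.15 and that of all genes -0.11, and the nonclassical class I direction turned. Without 2T-p190-B-/- replicate 3 the class II median was 0.041, so its direction rested on 1 array. Without 2T-WT replicate 3 the classical class I median was 0.0034 and the nonclassical -0.0053.

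**Figure D2:**
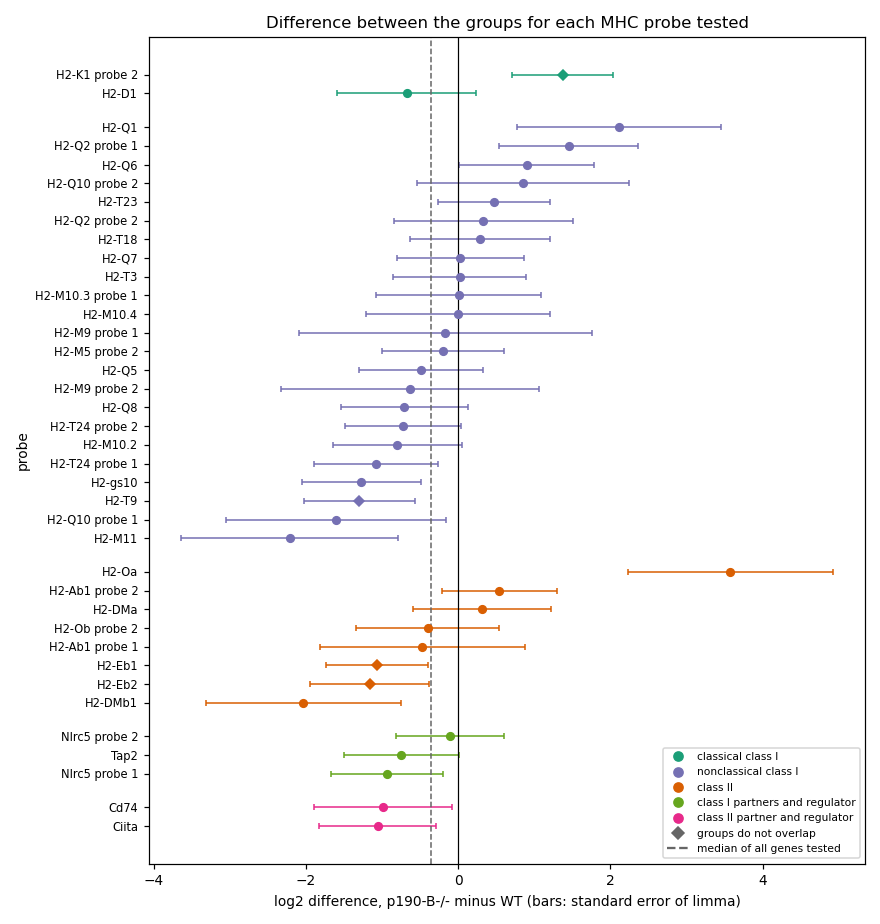
Log2 difference (2T-p190-B-/- minus 2T-WT) of the 38 MHC probes tested, with the standard error of limma (n = 3 arrays per group) as bars, grouped by class and ordered within it. Diamonds mark the 4 probes whose groups do not overlap, and the dashed line is the median of all genes tested at -0.35.

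H2-K1 encodes the classical class I heavy chain H2-K, one of the chains that present peptides to CD8 T cells. Its tested probe (chr17:34133984-34134043, minus strand, mm9) read 1.17, 1.10 and 1.90 in 2T-WT against 2.48, 2.89 and 2.91 in 2T-p190-B-/-. All 2T-p190-B-/- values lay above all 2T-WT values. The difference was 1.37 ± 0.66 (SE, n = 3 per group), a 2.59-fold higher signal, with an adjusted p of 0.637 from limma (unadjusted 0.0715). An exact two-sided permutation test of 3 against 3 arrays cannot go below 0.1. On slide 2 alone the difference was 1.19, and over all other settings it lay between 1.19 and 1.67. A further H2-K1 probe was above background on 2T-p190-B-/- replicate 2 alone and was not tested. The tested one shared a 15-base word with the probe of H2-T23.

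H2-D1 encodes H2-D, the other classical heavy chain among the members. The probe read 0.18, -0.098 and -2.78 in 2T-WT against -1.62, -1.66 and -1.45 in 2T-p190-B-/-, and on 2T-WT replicate 3 it was not above background. The groups overlapped: 2T-WT replicates 1 and 2 were the highest of the 6 and replicate 3 the lowest. Its difference was -0.68 ± 0.92, with an adjusted p of 0.814 from limma, and -0.20 on slide 2 alone. Without 2T-WT replicate 3 it was -1.62 and without replicate 1 it was -0.14. The differences of H2-K1 and H2-D1 thus had opposite signs. Whether the difference between them exceeds the spread was not tested.

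**Figure D3:**
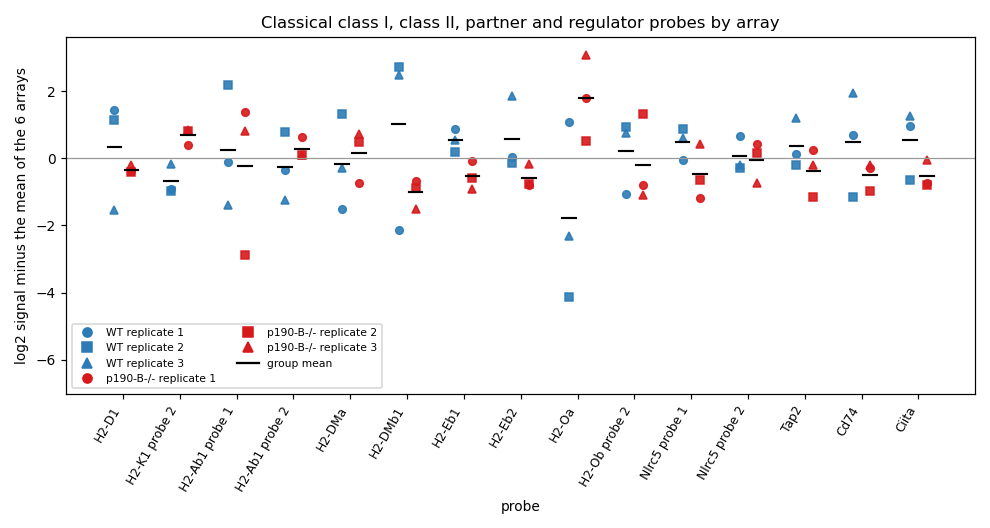
Log2 signal minus the mean of the 6 arrays for the tested probes of classical class I, class II, partner and regulator genes, with 1 point per array and a bar at each group mean (n = 3). H2-K1, H2-Eb1 and H2-Eb2 are the probes whose blue 2T-WT points and red 2T-p190-B-/- points do not overlap.

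Of the class I partners, Tap2 was the peptide pump subunit that could be tested. It read -0.55, -0.89 and 0.50 in 2T-WT against -0.44, -1.84 and -0.90 in 2T-p190-B-/-. The highest value was on 2T-WT replicate 3 and the groups overlapped, with a difference of -0.75 ± 0.75 and an adjusted p of 0.745 from limma. Nlrc5, the class I transactivator, read 1.00, 0.034 and 0.12 in 2T-WT against 0.74, 0.50 and -0.42 in 2T-p190-B-/- with the probe that was above background on all 6 arrays. These values overlapped, and the difference was -0.11 ± 0.71. A further probe of Nlrc5, above background on 3 arrays, gave -0.94 ± 0.74. On slide 2 alone the first of these probes differed by 0.55, with the opposite sign.

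The nonclassical class I genes include ligands of natural killer and γδ T cell receptors and many genes of restricted expression. H2-T23 encodes Qa-1, the ligand of the CD94-NKG2A receptor. Its values were 1.54, 0.86 and 2.24 in 2T-WT against 2.73, 1.88 and 1.45 in 2T-p190-B-/-, which overlapped, with a difference of 0.47 ± 0.74. H2-T9, a gene of the H2-T region, read 0.99, 0.059 and 1.13 in 2T-WT against -1.33, -0.42 and 0.043 in 2T-p190-B-/-. For this gene all 2T-p190-B-/- values lay below all 2T-WT values, though the nearest pair, 0.059 and 0.043, almost met. The difference was -1.30 ± 0.73 with an adjusted p of 0.637 from limma, -1.47 on slide 2 alone and -1.63 to -0.74 over all other settings. H2-T3, which encodes the thymus leukemia antigen, read -1.06, -0.80 and 0.93 in 2T-WT against -1.26, -0.46 and 0.84 in 2T-p190-B-/- and differed by 0.018 ± 0.88.

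The Q region includes the genes of Qa-2, H2-Q6 to H2-Q9. H2-Q6 read 0.055, -1.81 and 1.05 in 2T-WT against 0.63, 1.14 and 0.21 in 2T-p190-B-/-. The values overlapped, 2T-WT replicate 2 was the lowest, and the difference was 0.90 ± 0.88, or 0.11 without that array. H2-Q8 read -2.51, -0.75 and 0.098 in 2T-WT against -1.97, -1.67 and -1.65 in 2T-p190-B-/-, with a difference of -0.71 ± 0.83 and a narrow 2T-p190-B-/- group inside the 2T-WT range. H2-Q7, above background on 3 arrays, differed by 0.027 ± 0.83. Although these 3 genes encode closely related chains, their differences had both signs.

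H2-Q2 had 2 tested probes. One read -0.80, -2.14 and 0.002 in 2T-WT against 1.85, 0.087 and -0.50 in 2T-p190-B-/- and differed by 1.45 ± 0.91. The other read -2.14, 1.71 and -2.83 in 2T-WT against -0.61, -0.63 and -1.03 in 2T-p190-B-/- and differed by 0.33 ± 1.18, with 2T-WT replicate 2 above all other arrays. H2-Q10, which encodes a secreted class I chain made mainly in the liver, also had 2 tested probes, and they disagreed in sign. The probe above background on 5 arrays read -1.32, 1.39 and 1.93 in 2T-WT against 0.40, 0.83 and -4.05 in 2T-p190-B-/-, a difference of -1.61 ± 1.45 in which 2T-p190-B-/- replicate 3 was the low array and which was -0.052 without it. The other, above background on 4 arrays, differed by 0.85 ± 1.39. H2-Q5 read 3.15, 3.97 and 5.22 in 2T-WT against 3.59, 4.34 and 2.95 in 2T-p190-B-/-, an overlap with a difference of -0.49 ± 0.81. H2-Q1, detected in 1 of 3 2T-WT samples and in 2 of 3 2T-p190-B-/- samples, differed by 2.11 ± 1.34, and by -0.022 after normexp background correction.

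Both nonclassical probes with shared words had the higher mean on the 2T-WT arrays. H2-gs10 read 11.46, 10.47 and 12.44 in 2T-WT against 9.93, 9.76 and 10.85 in 2T-p190-B-/-. The groups overlapped on 1 array each, and the difference was -1.27 ± 0.78 on this scale and 0.15 after quantile normalization. The H2-T24 probe with shared words read 5.46, 5.73 and 6.66 in 2T-WT against 4.81, 4.68 and 6.20 in 2T-p190-B-/-, and its difference of -0.72 ± 0.76 was 0.38 after quantile normalization. The other H2-T24 probe read 0.067, 1.01 and -1.16 in 2T-WT against -1.27, -1.65 and -0.41 in 2T-p190-B-/-. It overlapped between the groups and differed by -1.08 ± 0.81.

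The H2-M genes of the M10 and M1 families are known from the vomeronasal organ, where they accompany pheromone receptors. H2-M10.2 read -0.43, -0.59 and 1.87 in 2T-WT against -0.41, -0.64 and -0.49 in 2T-p190-B-/-, with 2T-WT replicate 3 as the high array and a difference of -0.80 ± 0.84 that was -0.0053 without that array. H2-M10.4 read -2.97, -1.42 and -0.16 in 2T-WT against -3.25, 0.84 and -2.17 in 2T-p190-B-/- and differed by -0.0065 ± 1.21. H2-M11 read -1.64, 4.39 and 0.73 in 2T-WT against -0.24, -1.02 and -1.89 in 2T-p190-B-/-. Here 2T-WT replicate 2 stood far above the other arrays, and the difference of -2.21 ± 1.42 was -0.60 without it. H2-M5, outside these families, read 0.11, -1.18 and -1.89 in 2T-WT against -1.85, -1.23 and -0.49 in 2T-p190-B-/- and differed by -0.21 ± 0.80. H2-M9 read 0.50, 2.55 and -3.82 in 2T-WT against 0.017, 0.60 and -3.29 in 2T-p190-B-/- with the probe above background on 5 arrays, a spread within both groups that was wider than the difference of -0.63 ± 1.69.

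The remaining tested nonclassical probes had standard errors larger than their differences. H2-M10.3 differed by 0.006 ± 1.08 and H2-T18 by 0.29 ± 0.92, each above background on 4 arrays. A further probe of H2-M9, above background on 3 arrays, differed by -0.17 ± 1.93. For 7 of the 26 nonclassical genes no probe could be tested, namely H2-M1, H2-M2, H2-M3, H2-M10.1, H2-M10.6, H2-T10 and H2-T3-like. H2-M1 was detected in 2 of 3 2T-WT samples and in no 2T-p190-B-/- sample. It read -4.42, -3.01 and -0.83 in 2T-WT against -5.03, -5.12 and -3.85 in 2T-p190-B-/-. Values not above background enter both groups, so no size is given. The untested probe of H2-M5 was above background on 2T-WT replicate 2 alone, where it read -1.67, and no size is given for it either.

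The class II genes were read chain by chain. H2-Ab1 encodes the beta chain of I-A, the main class II molecule of this strain, and had 2 probes on mm9 chromosome 17 that matched at 50 of 51 overlapping bases. One was above background on all 6 arrays and read -0.16, 0.97 and -1.04 in 2T-WT against 0.81, 0.28 and 0.30 in 2T-p190-B-/-. The other read -2.31, -0.021 and -3.58 in 2T-WT against -0.82, -5.09 and -1.41 in 2T-p190-B-/- and was above background on 3 arrays. The groups overlapped for both. Their differences were 0.54 ± 0.76 and -0.47 ± 1.35, of opposite sign for nearly the same target. H2-Aa, the alpha chain of I-A, was above background on 2T-p190-B-/- replicate 1 alone and was not tested.

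The beta chain genes of the I-E group gave the pair of class II genes without overlap. H2-Eb1, the I-E beta chain (chr17:34453075-34453134, plus strand, mm9), read -1.13, -1.81 and -1.46 in 2T-WT against -2.07, -2.60 and -2.92 in 2T-p190-B-/-. All 2T-p190-B-/- values were below all 2T-WT values. Its difference was -1.06 ± 0.67, a 2.09-fold lower signal, with an adjusted p of 0.637 from limma. On slide 2 alone it was -0.70, and over all other settings it stayed between -1.29 and -0.70. The related H2-Eb2 (chr17:34476934-34476993, plus strand, mm9) read 3.41, 3.22 and 5.20 in 2T-WT against 2.57, 2.59 and 3.20 in 2T-p190-B-/-. The 3 2T-p190-B-/- arrays lay below the 2T-WT arrays, though the nearest pair, 3.20 and 3.22, almost met. The difference was -1.16 ± 0.78 with an adjusted p of 0.64 from limma, -1.63 on slide 2 alone, -0.53 without 2T-WT replicate 3 and -0.23 after normexp background correction. The I-E alpha chain appears as a pseudogene, H2-Ea-ps, in this annotation, and its probe was above background on 0 of 6 arrays.

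H2-Oa encodes the alpha chain of H2-O, which restrains H2-DM. Its probe (chr17:34232033-34232092, plus strand, mm9) read -1.02, -6.24 and -4.43 in 2T-WT against -0.32, -1.60 and 0.95 in 2T-p190-B-/-. It was above background on all 3 2T-p190-B-/- arrays and on 2T-WT replicate 1 alone. The groups overlapped, because 2T-WT replicate 1 lay between the 2T-p190-B-/- values. The difference was 3.57 ± 1.35 with an adjusted p of 0.637 from limma (unadjusted 0.0288). It was 4.37 on slide 2 alone, 2.40 to 5.01 with 1 array left out, and 0.89 after normexp background correction. As the probe met the detection filter through the group in which it was high, and 2 of 3 2T-WT values were not above background, this difference is not a measured size and its p carries no weight.

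H2-Ob, the partner chain of H2-Oa, had a difference of the other sign. The probe above background on all 6 arrays read -0.81, 1.19 and 1.02 in 2T-WT against -0.54, 1.57 and -0.83 in 2T-p190-B-/-, overlapped between the groups and differed by -0.40 ± 0.94. A further H2-Ob probe was above background on 0 of 6 arrays. H2-DMa, the alpha chain of the peptide exchanger H2-DM, read -1.99, 0.82 and -0.79 in 2T-WT against -1.23, -0.0025 and 0.22 in 2T-p190-B-/- and differed by 0.32 ± 0.91. This was -0.63 on slide 2 alone, so its sign was not stable. H2-DMb1, a beta chain of H2-DM, read -4.66, 0.19 and -0.068 in 2T-WT against -3.20, -3.42 and -4.03 in 2T-p190-B-/- and was detected in 3 samples, replicates 2 and 3 of 2T-WT and replicate 1 of 2T-p190-B-/-. Its difference was -2.04 ± 1.28, and -3.37 on slide 2 alone. Most of its 2T-p190-B-/- values were not above background, so this difference is not a measured size. H2-DMb2, the other beta chain, read -4.72, 6.40 and -4.40 in 2T-WT against -4.55, -5.02 and -5.98 in 2T-p190-B-/-, so that a single 2T-WT array stood far above the rest. It was above background on 2 arrays and was not tested.

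Cd74, the invariant chain, was above background on all 6 arrays and read 1.45, -0.37 and 2.72 in 2T-WT against 0.49, -0.22 and 0.57 in 2T-p190-B-/-. The values overlapped. The difference was -0.98 ± 0.91, with an adjusted p of 0.72 from limma, and -0.26 without 2T-WT replicate 3. Ciita, the class II transactivator, read 8.09, 6.48 and 8.38 in 2T-WT against 6.39, 6.31 and 7.07 in 2T-p190-B-/- with the probe of shared words described above. Its difference was -1.06 ± 0.77 and 0.18 after quantile normalization, so no direction was settled. Of the 7 class II genes tested, 4 were below 0 and 3 above it, and no shared direction was established. Of those below 0, H2-DMb1 gave no measured size and H2-Ob changed sign with 1 array left out. Those above 0 were H2-Ab1, with probes of both signs, H2-DMa, with an unstable sign, and H2-Oa, whose difference is not a measured size.

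**Figure D4:**
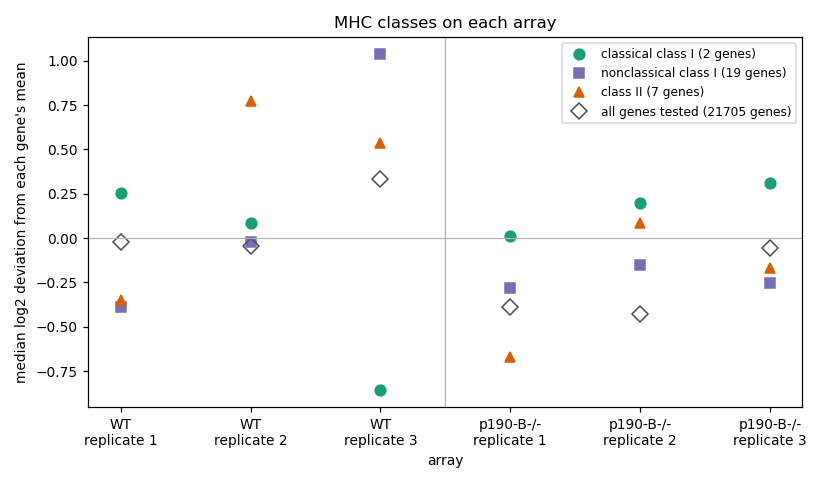
Median log2 deviation from each gene's mean over the 6 arrays, by array, for 2 classical class I genes, 19 nonclassical class I genes, 7 class II genes and all 21705 genes tested. Nonclassical class I genes are highest on 2T-WT replicate 3 (1.04), class II genes on 2T-WT replicate 2 (0.77), and the 3 classes do not move together.

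Single arrays stood apart within the classes. For the 19 nonclassical class I genes, the median deviation from each gene's own mean was 1.04 on 2T-WT replicate 3 and between -0.39 and -0.020 on the other 5 arrays. All genes showed a deviation of 0.33 on that array. The 7 class II genes were highest on 2T-WT replicate 2, at 0.77, and lowest on 2T-p190-B-/- replicate 1, at -0.67. Of 38 member probes, 12 had their highest value on 2T-WT replicate 3 and 11 on 2T-WT replicate 2, where 32.8% and 14.1% of all probes had theirs. The median within-group SD was 1.07 for the member probes and 1.06 for all probes tested.

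Further genes of antigen presentation were read from lists. In the class I route, 10 of 13 genes were tested, 3 were higher and 7 lower, the median difference was -0.74, and limma called 0 at an adjusted p under 0.05 and 1 before adjustment. Over all probes 60.8% were lower and 6.57% passed before adjustment, which is the background for these counts. The gene that passed before adjustment was Psmb8, a subunit of the immunoproteasome, which read -4.26, -3.73 and -3.27 in 2T-WT against 0.80, 0.26 and -1.07 in 2T-p190-B-/- and was above background on 1 of 3 2T-WT arrays. The 2T-p190-B-/- values lay above all 2T-WT values. Its adjusted p was 0.429 from limma, but it met the detection filter through the 2T-p190-B-/- arrays and 2 of 3 2T-WT values were not above background, so no size is given. The next highest was Psme1, a subunit of the proteasome activator, at 0.39. The lowest of the list were Erap1, which trims peptides, at -2.32, and Psme3 at -1.52.

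In the class II route, 8 of 9 genes were tested, 2 were higher and 6 lower, with a median of -0.45 and 0 called after adjustment (1 before it, the protease gene Ctsb), beside the same 60.8% and 6.57% of all probes. The lowest were Ctsb at -1.69 and Marchf1, a ubiquitin ligase for class II molecules, at -1.51. Ctss, the protease that degrades the invariant chain, at 0.72, and Marchf8 at 0.70 were the highest. Among the transcription factors of MHC genes, 10 of 13 were tested, 5 higher and 5 lower, with a median of -0.00087 and 0 called after adjustment (1 before it, Nfya, against 6.57% of all probes). Nfyc at 2.22 and Rfx5 at 1.52 were the highest, and Nfya at -1.85 and Rela at -1.38 the lowest. Nfyc rested on 1 array, since it read -1.53, -2.47 and -1.74 in 2T-WT against 3.98, -0.02 and -3.03 in 2T-p190-B-/- and differed by 0.39 without 2T-p190-B-/- replicate 1, and Rfx5 differed by 0.58 without 2T-WT replicate 3.

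Markers of cells that carry class II molecules were measured beside these genes. Of 10 B lymphocyte markers, 6 were above background on all 6 arrays. The summed signal of all 10, relative to the 75th percentile, ranged from 170 to 1328 for 2T-WT and from 122 to 190 for 2T-p190-B-/-. The sums pool probes of different strength: Cd79a made up 53.5% of the 1328, which was 2T-WT replicate 3, and Cd22 50.6% to 71.7% on each other array. Of the 9 tested, 3 were higher and 6 lower, with a median of -0.99. For dendritic cells, 4 of 10 markers were above background on all arrays. Sums over all 10 were 330 to 1425 in 2T-WT and 177 to 328 in 2T-p190-B-/-, of which the Siglech probe alone made up 97.1% to 99.8%. Zbtb46, Batf3, Siglech and Flt3 were the 4 above background on all arrays, whereas Itgax, Clec9a and Cd209a were each above it on 1 array. Of the 7 tested, 1 was higher and 6 lower, with a median of -0.84.

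For monocytes and macrophages, 6 of 11 markers were above background on all arrays. Sums over all 11 were 912 to 5864 in 2T-WT and 544 to 916 in 2T-p190-B-/-, of which the Itgam probe made up 92.2% to 97.3%. These sums, like those of the dendritic cell markers, thus mainly follow 1 probe, and neither was compared under other settings. Of 9 tested, 1 was higher and 8 lower, with a median of -1.03. The T lymphocyte markers, of which 5 of 9 were above background on all arrays, had sums of 42.2 to 141 in 2T-WT and 31.7 to 56.2 in 2T-p190-B-/-, of which the Cd4 probe made up 68.5% to 94.7%, and a median of -0.32 over 7 tested. The genes of the gate and of stem cell identity had a median of 0.31 over 8 tested. Across these 5 lists limma called 0 genes at an adjusted p under 0.05. Before adjustment it called 1, Cd14 (limma p 0.0137), against 6.57% of all probes. All 2T-p190-B-/- values of Cd14 lay below its 2T-WT values. Over all probes 60.8% were lower. The B cell, dendritic, myeloid and T cell lists thus had median differences below 0, as did all genes (-0.35). Of 7 class II genes, the 4 below 0 were H2-Eb1, H2-Eb2, H2-DMb1 and H2-Ob, and Cd74 and Ciita were also below 0. H2-Ob and Ciita changed sign under another setting, and H2-Eb2 was -0.23 after normexp background correction. The H2-DMb1 difference is not a measured size, because most of its 2T-p190-B-/- values were not above background. The 3 above 0 were H2-Ab1, with probes of both signs, H2-DMa, with an unstable sign, and H2-Oa, whose difference is not a measured size. The part of these cell types in the MHC values was not tested.

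**Figure D5:**
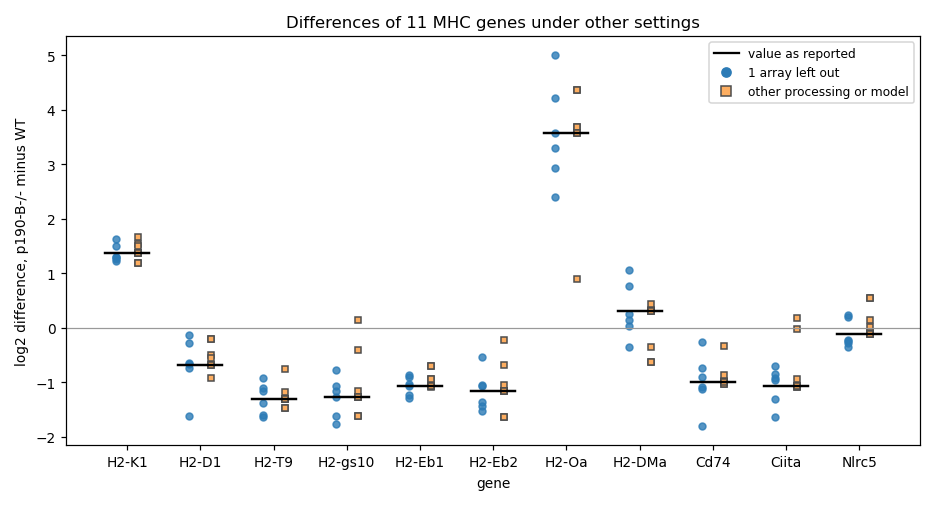
Log2 difference (2T-p190-B-/- minus 2T-WT) of 11 MHC genes as reported (line), with 1 array left out (circles) and under other processing or models (squares). H2-K1 stays between 1.19 and 1.67 and H2-Eb1 between -1.29 and -0.70, whereas H2-gs10, H2-DMa, Ciita and Nlrc5 cross 0.

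H2-K1, H2-T9, H2-Eb1 and H2-Eb2 kept their sign under every setting run, as did 17 of the 32 genes tested. The other 15 reversed under at least 1 setting. With 1 array left out, 28 of the 32 turned or moved by over 1.5 times, and H2-K1, H2-T9, H2-Eb1 and H2-Oa were the 4 that did not. For H2-Oa this carries no weight, because 2 of 3 2T-WT values were not above background. Its difference was 0.89 after normexp background correction. No setting, including each array left out in turn, took any member or any other probe past an adjusted p of 0.05.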

How the data were processed

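RNA of LSK-SLAM cells from 6 samples, 3 WT and 3 p190-B-/-, was amplified, labelled with Cy3 and hybridised by Miltenyi to Agilent whole mouse arrays. The authors deposited the scanner output of Feature Extraction 10.5.1.1, whose processed signal is an intensity on a linear scale, with background and spatial trends removed and no scaling between arrays. The authors also deposited a value table, the same signal divided by 1 number per array, a linear intensity that served as an alternative after log2. Groups and replicate numbers came from the sample labels.

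Control spots and 296 to 509 outlier spots per array were left out, and 0 spots were saturated. Each array was scaled by subtracting the log2 of its 75th percentile from the log2 processed signal, and repeated spots of a probe were averaged. limma 3.58.1 (lmFit and eBayes, R 4.3.3) was fitted on all 6 arrays without covariates, over probes well above background on at least 3 arrays, and tested on simulated data. A gene with several probes was represented by the tested probe with the highest mean. The small number of arrays limits the precision.

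Alternatives were quantile normalization, normexp (offset 50), testing of all probes regardless of detection or of those detected on all 6 arrays, the deposited table, slide as a block or slide 2 alone, a replicate block, an intensity trend with robust variance, the methods' t-test (Student, two-sided, before and after Benjamini-Hochberg adjustment), the mean over a gene's probes, and each array left out in turn. Every tested member gene is named, with values per array for the classical class I, class II, partner and regulator genes, and for nonclassical class I genes above background on at least 5 arrays or with an unadjusted p under 0.05. Genes of other lists are given as counts with the 2 highest and 2 lowest differences. The other lists were further antigen processing genes of both routes, MHC transcription factors, markers of B lymphocytes, dendritic cells, monocytes and macrophages, and T lymphocytes, and genes of the gate and of stem cell identity. The members and lists were chosen with earlier results of these data known, and H2-T3-like was added to the nonclassical list after the files were read.

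Probe coordinates are those of the files (mm9). Of the 55 MHC probes, 48 had a RefSeq symbol by accession, 47 of them equal to the name on the array. Promoters are from RefSeq (GRCm38.p6).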

Additional observations from a re-analysis of the deposited data

How the results depend on the processing

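No member and no other probe passed an adjusted p of 0.05 under any setting run. Unadjusted, 1 member probe passed as reported, whereas 2 did after quantile normalization, without a filter on dim probes, in the deposited value table, with slide as a block, on slide 2 alone and by the methods' t-test, 4 after normexp correction, and 0 to 3 with 1 array left out. Of all probes, 1654 passed unadjusted, 3633 after normexp correction, 995 among probes above background on all 6 arrays, and 1068 to 2443 with 1 array left out, 1068 being the count without p190-B-/- replicate 2. The median over all genes was -0.35 as reported, -0.11 after quantile normalization, -0.44 after normexp correction, -0.52 without a filter, -0.46 among probes above background on all 6 arrays, -0.23 in the deposited table, -0.50 with slide as a block or on slide 2 alone, and -0.45 to -0.26 with 1 array left out. The classical class I median of 0.35 was 1.37 among probes above background on all 6 arrays, where H2-K1 was the one gene left, and 0.0034 to 0.56 with 1 array left out. After quantile normalization the sign turned for H2-Q5 (0.18), H2-T24 (0.38), H2-T3 (-0.039), H2-gs10 (0.15) and Ciita (0.18). After normexp correction the sign turned for H2-M10.3 (-0.68), H2-Q1 (-0.022), H2-Q5 (0.32), H2-Q7 (-1.10), H2-T18 (-0.63), H2-T24 (0.21), H2-T3 (-0.13), H2-DMa (-0.35) and Nlrc5 (0.15). In the deposited value table the sign turned for H2-M10.4 (0.12) and Nlrc5 (0.014). With slide as a block, and equally on slide 2 alone, the sign turned for H2-M10.3 (-0.017), H2-M9 (0.94), H2-Q7 (-0.036), H2-T3 (-0.92), H2-DMa (-0.63) and Nlrc5 (0.55). With 1 array left out, the sign turned at least once for H2-M10.3 (-1.09 to 0.79), H2-M10.4 (-1.19 to 0.85), H2-M5 (-0.66 to 0.34), H2-M9 (-2.41 to 0.77), H2-Q5 (-0.97 to 0.065), H2-Q7 (-0.51 to 0.75), H2-T18 (-0.44 to 1.06), H2-T3 (-0.55 to 0.64), H2-DMa (-0.35 to 1.06), H2-Ob (-1.15 to 0.047) and Nlrc5 (-0.34 to 0.24). The cause of these changes was not tested. Of the 32 genes, 17 kept their sign in all settings.

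Same-numbered arrays of the 2 groups had deviations that correlated at 0.00896, 0.0161 and 0.0863 over 24873 probes, so no pairing by number was visible. Such correlations cannot tell whether same-numbered samples shared an isolation. With the replicate block in a paired fit, 1 member probe passed unadjusted and 0 adjusted, 1871 of all probes passed unadjusted, and the median over all genes was -0.35. Signal near background limited 17 of the 55 MHC probes, which could not be tested.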
